A study of Rattus norvegicus with 4 samples.

Results

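The mast cell proteases were followed in colon tissue of rats with and without mesenchymal stem cell transplantation (MSCT). They are Mcpt1, Mcpt2, Mcpt8, Mcpt9, Mcpt10, Cma1, Tpsab1, Tpsb2, Tpsg1 and Cpa3. Of these 10 genes, 7 had a value on all 4 arrays, out of 18350 rows with a value. Cma1 had a row that was blank on every array, and Mcpt10 and Cpa3 were matched to no row and were not analysed here. The genes were chosen by name with earlier results of the same comparison known, in which Mcpt1 and Mcpt2 already stood out by their differences in log2 intensity, so the differences given for them are a description and carry no test.

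Mast cells are granulated immune cells that live in the mucosa and the connective tissue of the gut. Their granules hold serine proteases of the chymase family (the Mcpt genes and Cma1), and the typical chymases among them cut after aromatic residues. They also hold tryptases (Tpsab1, Tpsb2 and Tpsg1), which cut after basic residues, and carboxypeptidase A3 (Cpa3). These proteases are packed on the proteoglycan serglycin together with histamine. In the rat, mucosal mast cells are known for Mcpt2, which is released during intestinal anaphylaxis and worm expulsion, while mast cells of connective tissue are known for other chymases, tryptases and Cpa3.

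RNA was taken from colon tissue of 2 control rats and 2 MSCT rats, all male Sprague Dawley animals, and each was hybridized to a one-color NimbleGen array, which gives 1 intensity for each RefSeq transcript. The MSCT rats received trinitrobenzene sulfonic acid (TNBS) in ethanol into the colon, which causes colitis, and then, through the tail vein, a supplier's stem cells that carried green fluorescent protein from a viral vector. The control rats had no transplantation. The sample descriptions call them normal rats, whereas the paper sets the MSCT group against untreated IBD rats, and both are named in the series text, so a difference between the groups may include the TNBS treatment as well as the cells. The chips are given different days after transplantation in different places of the paper, and the labels give none. Array medians lay between 848 and 893 intensity units, and 0 of the 18350 rows passed an adjusted p of 0.05 by limma (2196 had an unadjusted p under 0.05) or by a plain test with equal variances (1772 unadjusted). With 2 arrays against 2, an exact two-sided permutation test cannot go below p = 0.333.

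The names of the first pair of genes need care. The row NM_172044 is Mcpt2 in the study's gene table and here, but RefSeq's table for the assembly GRCr8 now calls it Mcpt1 and lists both rMCP-1 and rMCP-2 as its older names. The row NM_017145 is Mcpt1 in the study and here, and the RefSeq table calls it Vch, for vascular chymase. Whether the probes of these related transcripts share signal cannot be read from 1 value per transcript.

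Most of these genes sit in the same stretch of rat chromosome 15, and the sequence in front of them shows which are close relatives. The bases before the annotated start of 5 Mcpt genes follow, from RefSeq (GRCr8), 5′ to 3′, with GATAA or its reverse complement TTATC in capitals. GATAA is the core of the sites that bind GATA factors, which include the mast cell factor GATA2. Mcpt2 and Mcpt1 are shown because they were the rows highest in MSCT relative to control. Mcpt4 is shown as their relative without such a difference, although its values were too low on every array to read one. Mcpt9 and Mcpt8 are shown because they are a second close pair.
Mcpt2, chr15:33841356-33841605, plus strand: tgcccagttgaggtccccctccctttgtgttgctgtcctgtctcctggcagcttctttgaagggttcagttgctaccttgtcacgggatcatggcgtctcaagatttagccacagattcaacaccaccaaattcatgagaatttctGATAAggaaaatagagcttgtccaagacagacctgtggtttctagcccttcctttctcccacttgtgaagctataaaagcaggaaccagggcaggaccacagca
Mcpt1, chr15:33569491-33569740, plus strand: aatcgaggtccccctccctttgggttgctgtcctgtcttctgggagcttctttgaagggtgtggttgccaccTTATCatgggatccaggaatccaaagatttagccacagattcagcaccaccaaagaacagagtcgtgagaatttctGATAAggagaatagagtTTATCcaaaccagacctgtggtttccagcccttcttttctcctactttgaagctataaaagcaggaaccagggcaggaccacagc
Mcpt4, chr15:33471241-33471490, plus strand: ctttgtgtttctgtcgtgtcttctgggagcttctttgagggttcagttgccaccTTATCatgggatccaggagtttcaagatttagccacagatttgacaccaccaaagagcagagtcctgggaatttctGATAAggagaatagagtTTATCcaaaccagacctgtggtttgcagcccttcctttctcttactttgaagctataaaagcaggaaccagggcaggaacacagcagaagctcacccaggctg
Mcpt9, chr15:33827180-33827347, plus strand: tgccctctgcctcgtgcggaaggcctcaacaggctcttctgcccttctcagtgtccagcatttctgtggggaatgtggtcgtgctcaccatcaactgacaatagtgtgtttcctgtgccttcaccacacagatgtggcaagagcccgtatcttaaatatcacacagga
Mcpt8, chr15:33769399-33769574, plus strand: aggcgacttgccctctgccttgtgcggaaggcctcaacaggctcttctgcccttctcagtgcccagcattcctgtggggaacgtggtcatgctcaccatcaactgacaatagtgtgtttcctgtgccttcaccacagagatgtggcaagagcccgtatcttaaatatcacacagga

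In the 250 bases of the RefSeq promoter window, Mcpt2 and Mcpt1 were identical at 83.7% of aligned positions, Mcpt1 and Mcpt4 at 79.1% and Mcpt2 and Mcpt4 at 73.0%. Mcpt9 and Mcpt8 were identical at 90.3% of positions over windows of the same length, part of which lies past the annotated start of the gene and is not printed, whereas Mcpt9 and Mcpt2 shared 56.3%. For scale, Mcpt2 and the unrelated Tpsb2 shared 53.1% when aligned in the same way. GATAA, sought on both strands, was found 3 times before Mcpt1, 3 times before Mcpt4, 1 time before Mcpt2 and 0 times before Mcpt8 and Mcpt9. Among the other genes, in the same RefSeq window, Tpsab1 held 2 matches, Cma1 and Cpa3 1 each, and Tpsb2 and Tpsg1 0. The window of Tpsg1 lies wholly past the annotated start of the gene. Of 33469 rat promoters of this length, 23.5% held at least 1 match and 0.762% at least 3. Mcpt1, Mcpt2 and Mcpt4 shared the 16 bases gaatttctGATAAgga, which start 110, 112 and 128 bases before their starts, and 10 promoters in the RefSeq table held this run, all 10 between Cma1 and Gzmb. A match describes the letters of these windows and does not show that a factor binds there.

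Mcpt2, the mucosal chymase, ranked first of all 18350 rows by how far the MSCT group lay above the control group in the deposited values. Its intensity was 104 and 100.3 in the control rats (replicates 1 and 2), against 2530 and 1871 in the MSCT rats. Both control arrays were low and close together, and both MSCT arrays were far above them. On the log2 scale the level was 6.68 ± 0.04 (SD, n = 2) in the control group and 11.09 ± 0.31 (SD, n = 2) in the MSCT group, a difference of 4.41 (standard error 0.23) or 21.3-fold in the deposited values. The control values were at the level of genes known mainly from another tissue, the olfactory receptors of the nose: on the control arrays, 93 rows of these genes had median log2 levels of 7.01 and 6.98, with 95% of them below 7.91 on each array. Measured against that upper level instead of its own control values, Mcpt2 was at least 9.06-fold higher in the MSCT group, and the exact fold and rank are not fixed by these arrays.

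Mcpt1 ranked second of all rows in the same direction. Its intensity was 152 and 65.2 in the control rats, against 2072 and 1726 in the MSCT rats. The MSCT arrays were close to each other, while the control arrays lay 1.22 apart on the log2 scale, both below the upper level of the olfactory receptor rows. The difference of the deposited values was 4.25 (standard error 0.46, 19.0-fold), and 3.64 without control replicate 2 or 4.86 without control replicate 1, a spread read from control values at that low level. Against the upper level of the olfactory receptor rows, Mcpt1 was at least 7.88-fold higher in the MSCT group.

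**Figure D1:**
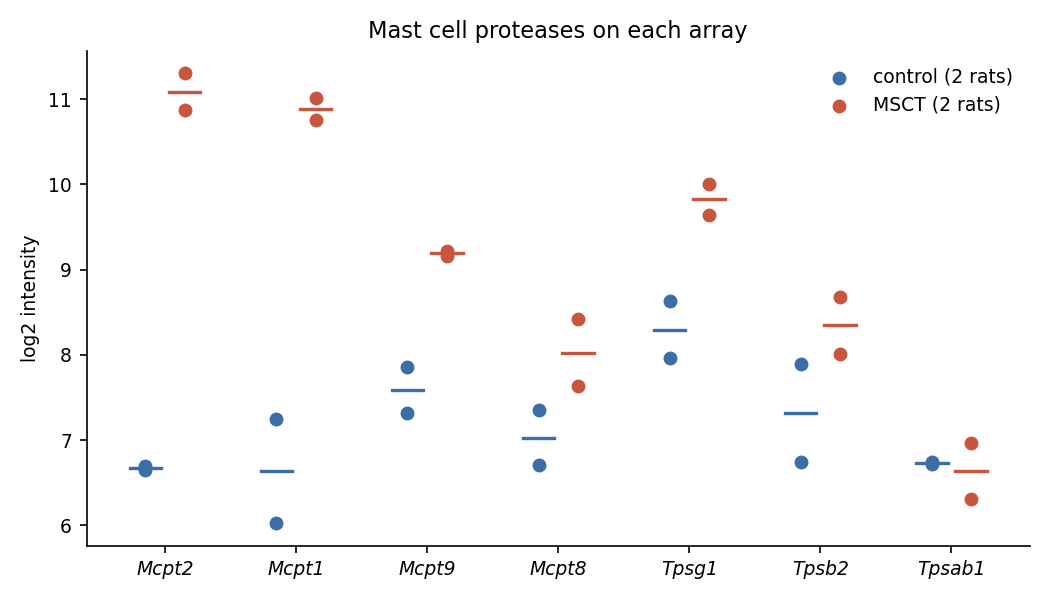
Log2 intensity (vertical axis) of the 7 measured mast cell proteases on each of the 4 arrays, with 1 point per rat and a bar at the mean of each group (blue, control; red, MSCT). Mcpt2 and Mcpt1 lie near 11 in both MSCT rats and below 7.3 in both control rats, while the points of Tpsab1 overlap.

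Mcpt9 and Mcpt8 belong to a branch of the family that resembles granzymes, and mouse Mcpt8 is a protease of basophils. The intensity of Mcpt9 was 159 and 232 in the control rats, against 574 and 597 in the MSCT rats, with a clear gap between the groups. Its log2 difference was 1.61 (standard error 0.26, 3.04-fold), the 133rd highest of all rows. Its control values were also at the level of the olfactory receptor rows, against which it was at least 2.44-fold higher. For Mcpt8 the values were 164 and 104 in the control rats, against 199 and 342 in the MSCT rats. The groups did not overlap, but only 0.29 on the log2 scale lay between the highest control and the lowest MSCT array. Its difference was 1.00 (standard error 0.38), just under 2-fold, with a spread within the groups of 0.46 in the control and 0.55 in the MSCT group (SD, n = 2 each). Leaving out 1 array moved it between 0.61 and 1.39, and with values raised to the level of the olfactory receptor rows it was 0.48.

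The tryptases did not share 1 pattern. Tpsg1, a tryptase held on the cell membrane, had an intensity of 249 and 399 in the control rats, against 1032 and 799 in the MSCT rats. Both MSCT arrays were above both control arrays, by a log2 difference of 1.53 (standard error 0.32, 2.88-fold). Tpsb2, the secreted tryptase known in rodents as Mcpt6, had 238 and 107 in the control rats, against 410 and 258 in the MSCT rats. Here the groups were separated by only 0.12, and the difference of 1.03 (standard error 0.48) fell to 0.45 without control replicate 2 and was 0.44 with values raised to the level of the olfactory receptor rows. Tpsab1, known as Mcpt7, had 107 and 106 in the control rats, against 79.3 and 125 in the MSCT rats. The groups overlapped, with a difference of -0.09 (standard error 0.29) that changed sign when MSCT replicate 1 was left out. All 4 values of Tpsab1 were at the level of the olfactory receptor rows.

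Of the 7 measured proteases, 4 (Mcpt1, Mcpt2, Mcpt9 and Tpsg1) passed a screen of an unadjusted p under 0.05 by limma and more than 2-fold, all 4 higher in the MSCT group, against 2.12% of all rows that passed it as higher. The thresholds are the study's, which does not name limma for them. By a plain test with equal variances 3 passed, and Tpsg1 did not. Over all rows that plain test passed 388, the same total as the genes reported by the paper. In 6 of 7 both MSCT arrays lay above both control arrays, against 21.3% of all rows. Because the genes were chosen on this comparison, nothing is read from these shares. The median difference was 1.53, and over all rows it was -0.02. Added together, the intensities of the 7 genes came to between 1113 and 1173 on the control arrays and between 5718 and 6897 on the MSCT arrays. The 4 genes passed the screen with any 1 of the 4 arrays left out, but such a fit takes the spread from the group that keeps both rats, and up to 1565 rows passed it, against 850 with all arrays. Mcpt8, Tpsb2 and Tpsab1 belong to the dimmest 25% of rows by mean level, where the median SD within groups was 0.47, against 0.22 (control) and 0.17 (MSCT) over all rows. In pieces of tissue, a change in the number of mast cells and a change in the RNA of each cell cannot be told apart.

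**Figure D2:**
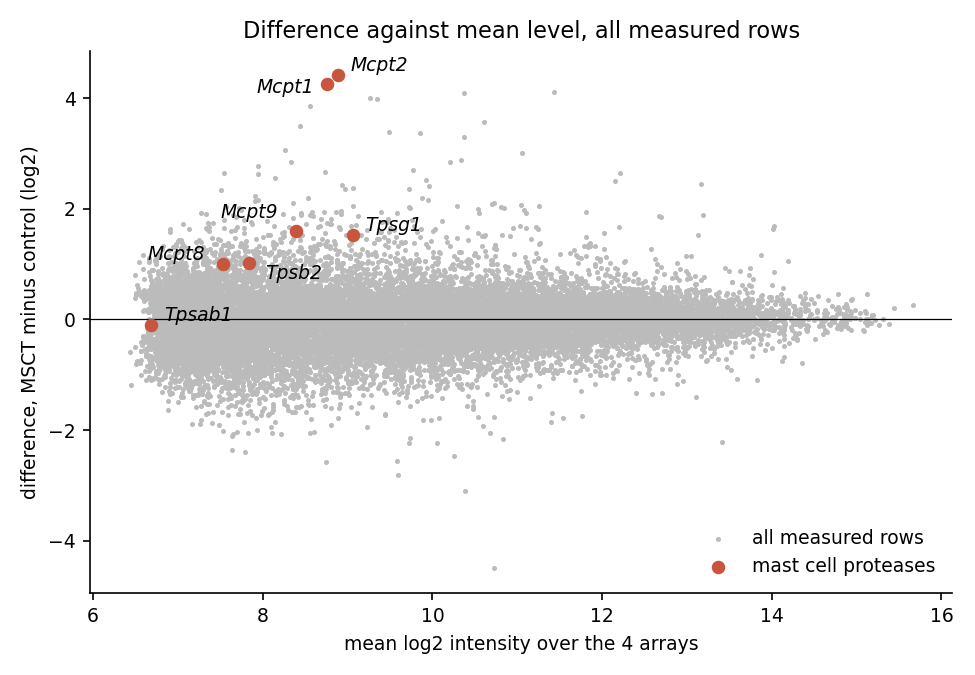
Difference between MSCT and control (vertical axis, log2) against mean log2 intensity over the 4 arrays (horizontal axis) for all 18350 measured rows (grey) and the 7 mast cell proteases (red). Mcpt2 and Mcpt1 lie at the top, Mcpt9, Tpsg1, Tpsb2 and Mcpt8 between 1.00 and 1.61, and Tpsab1 near 0.

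Along the chymase locus the differences varied from gene to gene. RefSeq lists 55 entries, genes and pseudogenes among them, from Cma1 to Gzmb on chromosome 15, of which 7 were measured. In their order, the log2 differences were 0.34 for Mcpt4, 4.25 for Mcpt1, 1.00 for Mcpt8, 1.61 for Mcpt9, 4.41 for Mcpt2, -0.11 for Gzmf and 1.92 for Gzmb. Mcpt4, another chymase, had 136 and 111 in the control rats, against 235 and 103 in the MSCT rats, and its groups overlapped. Gzmf, a granzyme, overlapped as well, at 149 and 105 against 94.6 and 142. All values of Mcpt4 and Gzmf were at the level of the olfactory receptor rows, so whether these genes differ cannot be read. Gzmb, the granzyme of cytotoxic lymphocytes at the far end of the locus, had 117 and 58.5 in the control rats, against 313 and 312 in the MSCT rats. Its control values were at that level too. Other genes of the locus with related names, such as Mcpt1l1 and Mcpt1l3, were matched to no row, and any signal of theirs on the probes of Mcpt1 and Mcpt2 cannot be separated. On chromosome 10, where Tpsab1, Tpsb2 and Tpsg1 follow each other, the next gene Cacna1h, a calcium channel, had a difference of -0.08 (standard error 0.60).

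**Figure D3:**
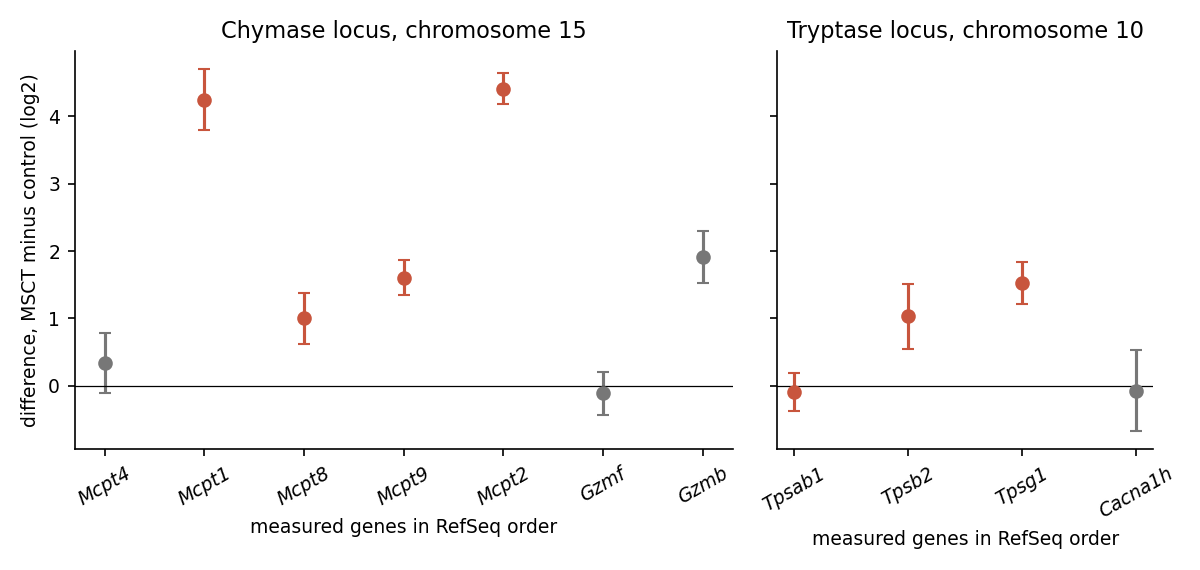
Log2 difference between MSCT and control (vertical axis; bars, standard error by limma, n = 2 each) for the measured genes of the chymase locus and the tryptase locus, in RefSeq order with equal spacing. Red points are the mast cell proteases and grey points their neighbours. Mcpt1 and Mcpt2 stand above 4, with Mcpt8 and Mcpt9 between them at 1.00 and 1.61.

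The differences of other mast cell genes lay on both sides of 0. Of 25 receptors, mediator genes and transcription factors of the lineage, 12 were measured, 8 were blank and 5 were matched to no row. Among the blank rows were defining genes of the cell: Fcer1a and Ms4a2, subunits of the IgE receptor, Slc18a2, which loads amines into granules, Hpgds, which makes prostaglandin D, and Gata1. The median difference of the 12 was 0.05, with 8 higher and 4 lower. Past the screen were 3 genes that were higher (of all rows 2.12%) and 0 that were lower (of all rows 2.51%). The groups did not overlap in 4 that were higher and 3 that were lower, against 21.3% and 24.5% of all rows. Hdc and Ltc4s, counted among these, had all their values at the level of the olfactory receptor rows. The summed intensity of the 12 genes was 37395 to 38974 in the control rats, against 38445 to 43547 in the MSCT rats, which overlap. Most of this sum came from Cd63 and Runx1 (22610 and 8349 in control replicate 1), so it says little about the other genes.

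The 3 genes were Srgn, Ptgs1 and Gata2, of which Gata2 had both control values at the level of the olfactory receptor rows. The control values of Srgn were close to the upper level of those rows. Srgn encodes serglycin, the proteoglycan that holds the proteases in the granule, and it is also made by other leukocytes. Its log2 level was 7.91 and 7.94 in the control rats, against 9.76 and 9.55 in the MSCT rats, a difference of 1.73 (standard error 0.19; limma adjusted p = 0.257). Ptgs1, cyclooxygenase 1, was at 10.26 and 9.94 against 11.39 and 11.38, a difference of 1.28 (standard error 0.21; limma adjusted p = 0.260). Both groups of Ptgs1 and Srgn were well separated, and both genes passed the screen with any 1 array left out. Gata2, which mast cells need for their formation, was at 7.03 and 7.47 against 8.95 and 8.04, a difference of 1.24 (standard error 0.39; limma adjusted p = 0.356), and passed in 1 of the 4 fits with an array left out.

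Kit, the receptor for stem cell factor, is made by mast cells and by the pacemaker cells of the gut wall. It was at 9.67 and 9.22 in the control rats, against 9.92 and 9.33 in the MSCT rats, so the groups overlapped (difference 0.18, standard error 0.31). Hdc, which makes histamine, was at 6.01 and 7.16 against 7.22 and 7.67. The groups of Hdc were just separated, and its difference of 0.86 (standard error 0.45) ranged from 0.28 to 1.44 with an array left out. All values of Hdc were at the level of the olfactory receptor rows, so whether it differs cannot be read. Of the genes of leukotriene synthesis, Alox5ap and Alox5 were on the lower side without passing the screen, with differences of -0.48 and -0.35. The difference of Ltc4s was -0.49, but all its values were at the level of the olfactory receptor rows, so it cannot be read. Cd63, a granule membrane protein found in many cells, differed by 0.08. Of the factors, Runx1 differed by 0.00, Stat5b by 0.03 and Stat5a by -0.37.

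**Figure D4:**
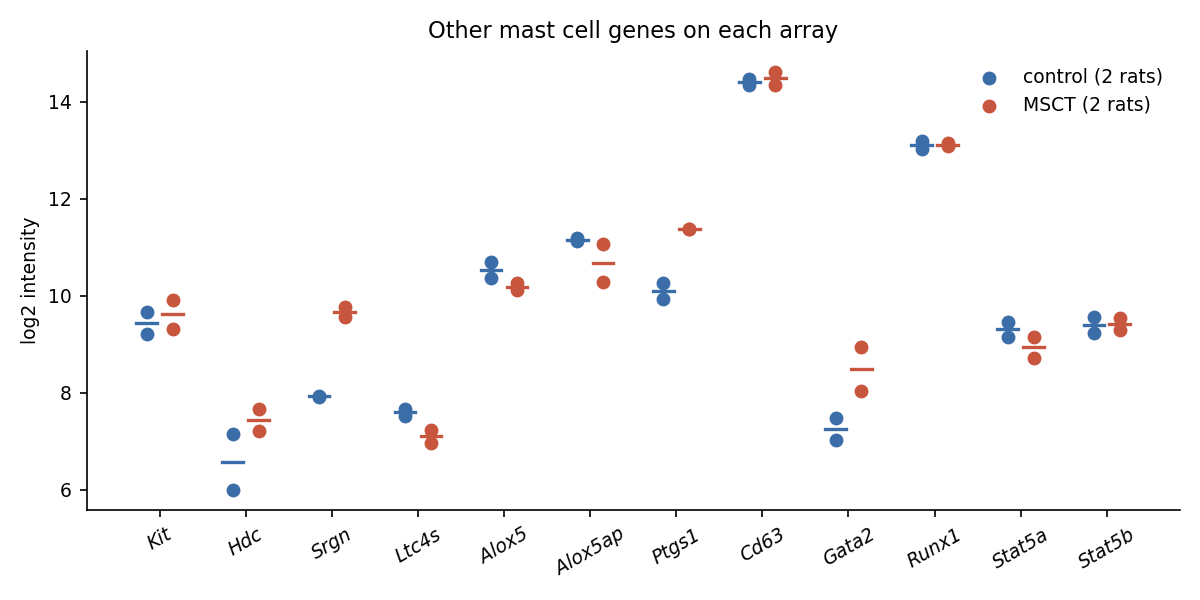
Log2 intensity (vertical axis) of the 12 measured mast cell genes other than proteases on each array, with 1 point per rat and a bar at the group mean (blue, control; red, MSCT). Srgn, Ptgs1 and Gata2 are higher in both MSCT rats, while Kit, Cd63, Runx1, Stat5a and Stat5b overlap.

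Among genes of protease activation and inhibition, not all of which act on mast cell proteases, the peptidase Ctsc and the inhibitors Slpi and Serping1 were higher in the MSCT group. Of the 8 in the list, 7 were measured, with a median difference of 0.57, and 6 were higher without overlap of the groups (of all rows 21.3%). Past the screen were 3, all higher (of all rows 2.12%). Ctsc encodes cathepsin C, the peptidase that removes the propeptide of chymases, tryptases and granzymes, and it was at 11.24 and 11.23 in the control rats, against 12.73 and 12.87 in the MSCT rats (difference 1.56, standard error 0.19; limma adjusted p = 0.257). Slpi, an inhibitor of chymase and neutrophil elastase made by mucosal epithelium, was at 8.59 and 8.69 against 9.67 and 10.51 (difference 1.45, standard error 0.33; limma adjusted p = 0.309). Serping1, the inhibitor of complement C1, differed by 1.38 (standard error 0.21; limma adjusted p = 0.260). Ctsc, Slpi and Serping1 passed the screen with any 1 array left out. The inhibitors Serpina3n, Serpinb1a and Serpinb6 differed by 0.57, 0.52 and 0.46 and did not pass.

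Genes of the other lists were held to the same screen, which 2.12% of all rows passed as higher and 2.51% as lower. Of 4 other granule proteases with a value, Mcpt4 among them, Gzmb passed, with a difference of 1.92 (standard error 0.38; limma adjusted p = 0.289). Its control values and that of MSCT replicate 1 were at the level of the olfactory receptor rows, so the size of this difference is not fixed. Among 8 measured growth and homing genes, 2 passed: Cxcl12, a chemokine that attracts mast cell precursors among other cells, differed by 1.30 (standard error 0.19; limma adjusted p = 0.260), and Tgfb1, a growth factor that induces mucosal mast cell chymases in culture, by 1.19 (standard error 0.25; limma adjusted p = 0.289). Tgfb1 passed in 3 of the 4 fits with an array left out. Itgb6, part of the integrin that activates it, differed by 0.47, and Kitlg, the ligand of Kit, by -0.12. Il33, an alarmin that activates mast cells, differed by -0.72. Il3, Il4, Il10 and Il13 were blank on all arrays. Of 9 measured signaling genes below the IgE receptor 0 passed, with differences from -0.66 for Plcg2 to 0.91 for Lat2, and of 6 measured substrates of the proteases 0 passed, with differences of 0.37 for the protease-activated receptor F2rl1 and -0.13 for the tight junction gene Ocln.

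Markers of other cells differed as well, and their part in the values of the proteases was not tested. Of all rows, 2.12% passed the screen as higher and 2.51% as lower. All 6 measured macrophage markers of 9 were higher (median 1.14), with Cd68 (1.29), Csf1r (1.00), C1qa (1.28) and C1qb (1.61) past the screen (Csf1r in only 2 of the 4 fits without 1 array), and their summed intensity was 4462 to 4773 on the control arrays and 10214 to 11101 on the MSCT arrays. Of 12 T and NK cell markers 6 were measured, with Gzmb, Zap70 (1.89, in 2 of the 4 such fits) and Nkg7 (1.72) past the screen and Cd8a (0.01) and Cd3g (0.13) overlapping, and their sum was 891 to 1041 against 1791 to 2028. The control values of Gzmb, Zap70 and Nkg7 were at the level of the olfactory receptor rows. So were all values of Cd3g, and all of Cd8a but that of MSCT replicate 2. Whether Cd3g and Cd8a differ cannot be read. The plasma cell gene Mzb1 differed by 1.26 and passed, but its control values and that of MSCT replicate 1 were at that level too. S100a9 was the only measured neutrophil marker of 9 (0.54). None of 7 eosinophil markers was measured, and 4 of them were blank. Epithelial markers had a median of 0.22 over 9 measured genes, and their sum was 170246 to 178163 against 189201 to 194782. Smooth muscle markers had a median of 0.02 over 5 genes, with sums of 141287 to 171485 against 154976 to 159204, and 0 markers of either tissue passed the screen.

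**Figure D5:**
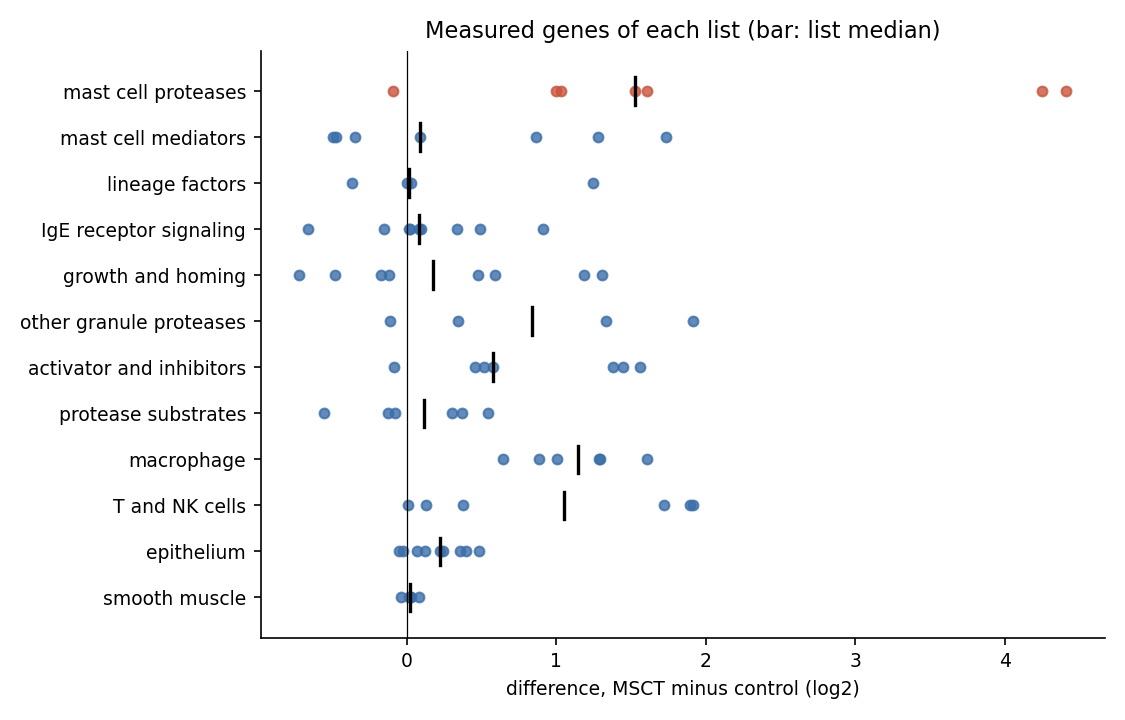
Log2 difference between MSCT and control (horizontal axis) for each measured gene of 12 lists, with 1 point per gene and a black bar at the median of each list. The proteases (red) reach 4.41, the macrophage markers lie between 0.64 and 1.61, and smooth muscle markers lie near 0.

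The values of Mcpt2 across the 4 arrays were compared with those of all other named genes after each gene was centred on its own mean. By Euclidean distance over the 4 arrays, the nearest genes outside the proteases were Gcnt3 (distance 0.85), Cyp4f1 (1.32), Fabp1 (1.40), Hsd3b2 (1.70) and Plet1 (1.81). For Mcpt1 the distance was 0.85. Gcnt3, a glycosyltransferase of mucins in goblet cells, was at 8.85 and 8.80 in the control rats, against 12.54 and 12.25 in the MSCT rats, so like Mcpt2 it was even across the control rats. The next genes, among them the epithelial fatty acid binding protein Fabp1, had control arrays far apart, at 6.34 and 8.18 for Fabp1. This likeness rests on 4 arrays and on the size of the difference.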

How the data were processed

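Colon RNA of 2 control and 2 MSCT rats was measured, with 1 array per rat and groups taken from the sample titles. The authors scanned the Cy3 arrays, extracted them with NimbleScan and deposited 1 linear intensity per RefSeq transcript and array. The submitters' processing notes name RMA, without saying how it was applied, and the rule that left 8070 of 26420 rows blank is not given in the sources used here. The number of arrays limits the precision. The limma p-values rest on the spread between these rats, drawn for each row toward the spread of all rows. All 4 value columns were used.

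Intensities were taken as log2 values without a pseudocount, further scaling or a filter. MSCT was compared with control over all 18350 rows with lmFit and eBayes of limma 3.58.1 (R 4.3.3). P-values were adjusted by Benjamini-Hochberg over these rows. The screen was an unadjusted p under 0.05 with a fold over 2, the thresholds of the study, which does not name limma. The fit was tested on simulated data. Rows were named by accession through the RefSeq gene table of GRCr8 (38.5% of measured rows), which was used for names and order. A gene with several rows was given by the row with the highest mean. Promoters came from the RefSeq table of GRCr8 and were aligned with Biopython 1.88 (global alignment, gaps and ends counted).

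The members and lists were chosen with earlier results of these data known. Named are all proteases, the mast cell receptors, mediators and factors with a value, up to 5 genes past the screen in each direction of the other lists, and the 5 named genes nearest to Mcpt2. Mcpt4, Gzmf, Cacna1h, the signaling, homing, inhibitor, substrate and marker genes that did not pass, and the genes named as blank, were named after their values were seen. Alternatives were a plain test with equal variances, quantile normalization, equal array medians, 50 added to each intensity, leaving out the dimmest 25% of rows, the trend and robust options of eBayes, the replicate number as a block, fits without 1 of the arrays, and the row with the largest difference per gene. No background correction could be varied, since 1 processed value per transcript is used.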

Additional observations from a re-analysis of the deposited data

How the results depend on the processing

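With 1 array left out, between 4 and 6 proteases passed the screen (6 without control replicate 1), their median difference lay between 1.33 and 1.87, between 2 and 3 of the other mast cell genes passed, with medians from -0.04 to 0.16, and between 934 and 1565 rows passed in all (1565 without control replicate 2 and 1503 without MSCT replicate 2). Without the dimmest 25% of rows, which hold Mcpt8, Tpsb2 and Tpsab1, the median over the 4 proteases left was 2.93. By the plain test with equal variances 388 rows passed the screen in place of 850. With the trend and robust options of limma, 387 rows passed an adjusted p of 0.05, and without the dimmest 25% of rows 4 did, against 0 in the fit reported. The difference of Mcpt2 was 3.87 with 50 added to each intensity. Mcpt8 also passed with quantile normalization and with equal array medians (5 proteases in each), and 3 passed by the plain test (Tpsg1 did not). The other counts stayed within 1.5 times and the other medians within the replicate spread, and between these settings no difference of a protease changed sign except that of Tpsab1 without MSCT replicate 1 (0.24). With each log2 value raised to the 95th percentile of olfactory receptor rows on its array, chosen after seeing the data, the differences were 3.18 for Mcpt2, 2.98 for Mcpt1, 1.29 for Mcpt9 and 0.16 for Tpsab1, and that of Tpsg1 did not move. The sample titles do not say whether arrays with the same replicate number are paired. The deviations of same-numbered arrays from their group means correlated across rows (r = 0.23), but with 2 pairs this does not show pairing. With the replicate number as a block, 971 rows and 5 proteases (Tpsb2 in addition) passed the screen.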
